A study of Mus musculus with 8 samples.

Results

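The genes described here encode the adhesion molecules by which leukocytes leave the blood: Sele and Selp (E-selectin and P-selectin), Selplg (PSGL-1, a selectin ligand), Icam1, Icam2 and Vcam1 (immunoglobulin superfamily ligands of integrins), and Itgal, Itgam and Itgb2 (subunits of the leukocyte integrins LFA-1 and Mac-1). They were listed by name for their role, with earlier results of these data known. All 9 were found among the 18820 genes to which the array assigned a single symbol, and each was read by exactly 1 of the 21218 probe sets of those genes. Whole lung RNA of FVB mice was measured on 8 Affymetrix Mouse Gene 1.0 ST arrays, and every array held RNA pooled from 3 mice. The 4 conditions, with 2 pools each, were CCSP-p52 mice with LPS, WT mice with LPS, CCSP-p52 mice without LPS and WT mice without LPS. CCSP-p52 mice carry CCSP-rtTA and CCSP-tTS/(tet-O)7-FLAG-p52, so that dox switches on FLAG-tagged p52, a subunit of NF-κB, in the airway epithelium and not in the endothelium or the leukocytes that make most of the adhesion molecules. The mice came from a pair of founder lines, and which line entered which pool was not stated. WT mice were littermates negative for the genotype.

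Mice of all 4 conditions were 8 to 12 weeks old, the sexes were evenly mixed within each condition, and all received dox at 2 g/L in the drinking water for 1 week. In the LPS conditions, lipopolysaccharide, a bacterial cell wall product, was given into the trachea 48 hours before the lungs were taken. The deposited values are on the log2 scale, so a difference of 1 is a doubling, and the median over all probe sets of an array lay between 7.48 and 7.54. Because the values of whole lung depend on the cell types present, fewer cells of a type and less RNA per cell cannot be told apart in any result below.

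Leukocytes leave the blood in steps. Selectins on activated endothelium catch flowing leukocytes through sugars carried by PSGL-1 and let them roll, chemokines then switch on the leukocyte integrins, and these bind ICAM-1, ICAM-2 and VCAM-1 on the endothelium for firm adhesion and passage. E-selectin is made anew when endothelium is activated, whereas P-selectin is also stored in endothelial granules and platelets. ICAM-2 and a basal amount of ICAM-1 are present on resting endothelium, and in the lung ICAM-1 is abundant on alveolar epithelium as well. LFA-1 is the pair of Itgal and Itgb2 products and Mac-1 the pair of Itgam and Itgb2 products. VCAM-1 is bound chiefly by the integrin α4β1, whose α subunit is the product of Itga4.

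The promoters of Sele, Selp, Icam1 and Itgam are shown because NF-κB, the factor family of the transgene, is known to act at the first 3, while Itgam is read mainly in myeloid cells, where the factor PU.1 is known to act on it. Each sequence runs 5′ to 3′ from 250 bases before to 50 bases after the start of the gene in RefSeq (build GRCm38.p6, plus strand in all 4). Capitals mark a κB-like match (GGNNNTTCC, either strand) in Sele, Selp and Icam1 and a PU.1 box (GAGGAAG, either strand) in Itgam.
Sele, chr1:164047984-164048283: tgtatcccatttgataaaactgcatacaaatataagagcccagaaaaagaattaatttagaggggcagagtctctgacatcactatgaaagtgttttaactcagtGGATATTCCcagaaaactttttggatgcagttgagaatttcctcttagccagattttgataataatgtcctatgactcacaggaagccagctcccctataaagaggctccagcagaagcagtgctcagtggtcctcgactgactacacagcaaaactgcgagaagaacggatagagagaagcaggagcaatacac
Selp, chr1:164115014-164115313: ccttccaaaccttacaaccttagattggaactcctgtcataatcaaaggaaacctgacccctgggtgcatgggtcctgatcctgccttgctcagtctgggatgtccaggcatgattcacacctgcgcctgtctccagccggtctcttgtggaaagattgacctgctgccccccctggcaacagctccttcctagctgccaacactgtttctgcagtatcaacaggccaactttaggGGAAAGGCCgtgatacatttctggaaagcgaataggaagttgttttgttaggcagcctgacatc
Icam1, chr9:21015690-21015989: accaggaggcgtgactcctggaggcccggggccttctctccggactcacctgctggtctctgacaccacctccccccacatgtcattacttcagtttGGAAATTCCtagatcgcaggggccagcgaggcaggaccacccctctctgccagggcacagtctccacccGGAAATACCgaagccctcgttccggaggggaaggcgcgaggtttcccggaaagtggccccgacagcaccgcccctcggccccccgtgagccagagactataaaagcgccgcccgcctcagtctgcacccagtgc
Itgam, chr7:128062390-128062689: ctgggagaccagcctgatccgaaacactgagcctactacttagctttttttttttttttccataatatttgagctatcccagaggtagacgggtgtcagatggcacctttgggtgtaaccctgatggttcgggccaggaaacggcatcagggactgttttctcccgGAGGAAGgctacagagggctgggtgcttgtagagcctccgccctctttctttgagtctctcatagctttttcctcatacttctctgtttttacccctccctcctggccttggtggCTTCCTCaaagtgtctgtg

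The Sele window held GGATATTCC at 145 to 137 bases upstream of the start and a TATA box (TATAAA) at 49 to 44 bases upstream. In Icam1, GGAAATTCC lay 153 to 145 bases upstream and fits the κB-like pattern on either strand. GGAAATACC lay 84 to 76 bases upstream, and TATAAA lay 14 to 19 bases into the gene. Selp held GGAAAGGCC close to its start, 14 to 6 bases upstream. Itgam held GAGGAAG at 84 to 78 bases upstream and its reverse, CTTCCTC, at bases 32 to 38 of the gene, and no κB-like match. These motifs are short and common. Of 32851 mouse promoter windows of the same table, 18.5% held a κB-like match, 13.6% a PU.1 box and 13.6% a TATAAA, counted on either strand. The motifs were picked with the sequences in view, and a match is a string of letters and not a measured binding site. Sele and Selp both lie on chromosome 1, Itgam lies on chromosome 7 next to Itgax and Itgad, and Icam1 lies on chromosome 9 next to Icam4 and Icam5. Among these neighbours with an own probe set, Itgax rose with LPS (logFC 0.90 ± 0.21 SE), while Itgad (0.08 ± 0.10), Icam4 (0.04 ± 0.09) and Icam5 (0.09 ± 0.07) did not pass the test.

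Some facts of the arrays touch every result. Nfkb2, the gene for p100 and its product p52, had log2 values of 10.20 and 10.33 in CCSP-p52 lungs, against 9.51 and 9.58 in WT lungs, both without LPS. With LPS it had 11.28 and 10.53 in CCSP-p52 lungs, against 10.83 and 10.56 in WT lungs, where the groups overlapped. Among the 4 LPS arrays, CCSP-p52 pool 2 stood apart: it was the lowest in all 7 pan-leukocyte markers and the highest in all 18 endothelial markers. WT LPS pool 2 held skeletal muscle and squamous epithelial transcripts, with Krt5 at 11.59, Krt13 at 11.71 and Acta1 at 11.97, against at most 6.67, 6.46 and 8.73 on any other array. The part of either pool's makeup in the results below was not tested beyond leaving the pool out.

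With LPS, 7 of the 9 genes rose, 1 fell and 1 did not pass the test. These calls came from an additive model of LPS and p52 fitted to the 8 arrays, at an adjusted p under 0.05 (limma, Benjamini-Hochberg over 21218 probe sets). Itgam, Selp and Itgb2 rose most, then Itgal and Selplg, with Vcam1 and Icam1 at smaller rises, and Icam2 fell. In the background, 13.5% of all probe sets were called higher and 20.2% lower with LPS. The median logFC of the 9 genes was 1.38, against 0.007 for all probe sets. Leaving out any single array ended no call of these 8 but that of Icam1, and the median then lay between 1.24 and 1.54.

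**Figure D1:**
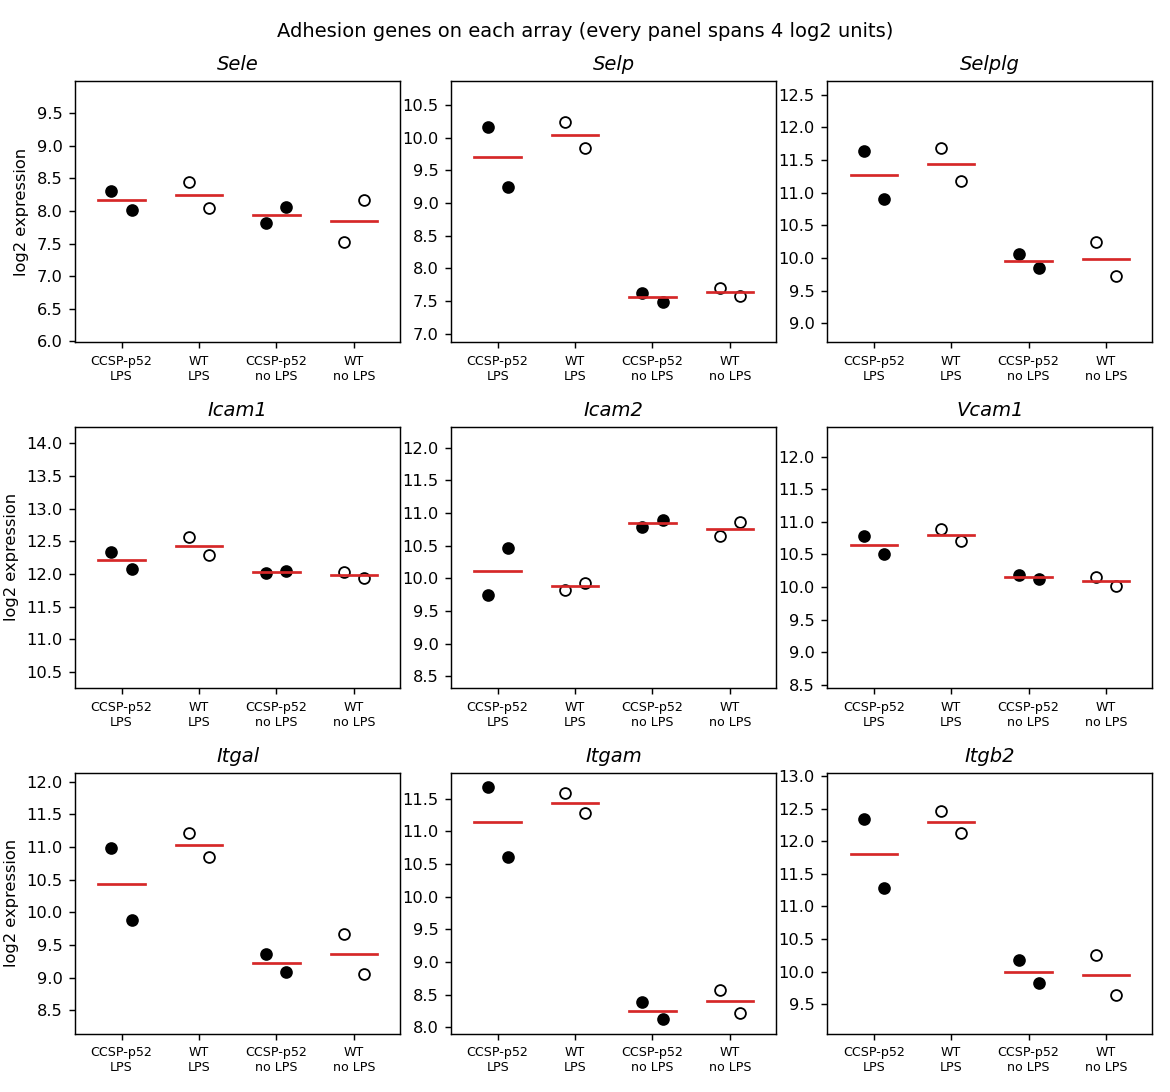
Log2 expression of the 9 adhesion genes on each of the 8 arrays. Filled points are CCSP-p52 pools, open points WT pools, each point 1 pool of 3 mice (pool 1 left, pool 2 right), red lines the mean of the 2 pools, and every panel spans 4 log2 units. All 4 LPS pools lie above all 4 other pools in 7 panels, below them in the Icam2 panel, and overlap with them in the Sele panel.

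Of the endothelial selectins, Selp rose and Sele did not pass the test. Selp measured 10.17 and 9.24 in CCSP-p52 pools with LPS and 10.25 and 9.85 in WT pools with LPS, against 7.63 and 7.49 in CCSP-p52 pools and 7.70 and 7.57 in WT pools without LPS. The lowest LPS pool lay 1.54 log2 units above the highest other pool, and the logFC was 2.28 ± 0.19 (SE), a 4.86-fold rise with an adjusted p of 0.0002. Sele, the other endothelial selectin, measured 8.30 and 8.02 in CCSP-p52 pools and 8.45 and 8.04 in WT pools with LPS. Without LPS it measured 7.82 and 8.06 in CCSP-p52 pools and 7.53 and 8.16 in WT pools. These values overlapped, since pool 2 without LPS of either genotype lay above the second LPS pool of both genotypes. The logFC of Sele was 0.31 ± 0.16 (adjusted p = 0.18), with a 95% confidence interval of -0.06 to 0.68, so a rise of up to 1.60-fold lies within it. The LPS change of Selp exceeded that of Sele by 1.97 log2 units. That value is a difference of changes within each gene, and as each gene has its own probe set it does not rank their amounts.

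Selplg, which encodes the PSGL-1 that leukocytes present to selectins, measured 11.64 and 10.90 in CCSP-p52 pools and 11.69 and 11.18 in WT pools with LPS, against 10.06 and 9.85 in CCSP-p52 pools and 10.25 and 9.73 in WT pools without it. The groups did not overlap, and the rise was 1.38 ± 0.20 on the log2 scale, 2.60-fold (adjusted p = 0.0016). In each of the 4 conditions pool 1 had more Selplg than pool 2. The spread between pools of a condition ran to 0.74 log2 units, in CCSP-p52 lungs with LPS.

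Of the immunoglobulin superfamily ligands, Vcam1 rose, Icam1 rose by less and with less certainty, and Icam2 fell. Vcam1 measured 10.79 and 10.50 in CCSP-p52 pools and 10.89 and 10.70 in WT pools with LPS, against 10.19 and 10.13 in CCSP-p52 pools and 10.16 and 10.02 in WT pools without LPS. Its logFC was 0.60 ± 0.10, a 1.51-fold rise (adjusted p = 0.0025). The ranges stayed apart, with the lowest LPS pool at 10.50 and the highest other pool at 10.19. Icam1, the counter-receptor of LFA-1 and Mac-1, was at 12.34 and 12.08 in CCSP-p52 pools and 12.57 and 12.29 in WT pools with LPS, against 12.02 and 12.05 in CCSP-p52 pools and 12.03 and 11.94 in WT pools without it. Here the lowest LPS pool, at 12.08, was separated from the highest other pool, at 12.05, by less than the distance between pools of either LPS group.

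The Icam1 logFC was 0.31 ± 0.10, 1.24-fold, with an adjusted p of 0.048. This call was lost in 7 of the 8 fits without 1 array (logFC 0.22 to 0.34) and held only without CCSP-p52 LPS pool 2 (0.39). It was also lost with all probe sets tested, named or not (adjusted p = 0.072), and after renewed quantile normalization (adjusted p = 0.0523). Sele and Icam1 thus had the same logFC at 2 decimals, 0.31, with a smaller standard error for Icam1.

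Icam2, an ICAM of resting endothelium, was at 9.74 and 10.47 in CCSP-p52 pools and 9.82 and 9.93 in WT pools with LPS, against 10.79 and 10.90 in CCSP-p52 pools and 10.65 and 10.86 in WT pools without LPS. All LPS pools were lower, with CCSP-p52 pool 2 nearest to the others. The logFC was -0.81 ± 0.15, 1.75-fold lower (adjusted p = 0.0047). The endothelial marker list moved in the same direction as Icam2: 17 of its 18 genes fell with LPS, none rose, and its median logFC was -0.80. Its defining genes Pecam1 (logFC -0.54 ± 0.13), Cdh5 (-0.47 ± 0.10) and Tie1 (-1.29 ± 0.20), were all called lower. Its summed signal was 15.36 to 16.02 on the log2 scale in LPS lungs, against 16.35 to 16.45 in lungs without LPS, and the part of this in the Icam2 fall was not tested. Selp and Vcam1 rose over the same arrays, and which cells made their transcripts was not tested.

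All 3 leukocyte integrin subunits rose. Itgam measured 11.68 and 10.61 in CCSP-p52 pools and 11.59 and 11.28 in WT pools with LPS, against 8.38 and 8.12 in CCSP-p52 pools and 8.57 and 8.22 in WT pools without LPS. The rise of this α subunit of Mac-1, the integrin of neutrophils, monocytes and macrophages, was 2.97 ± 0.22 on the log2 scale, 7.84-fold (adjusted p = 0.00013), and the ranges were 2.04 apart. Itgal, the α subunit of LFA-1 on nearly all leukocytes, measured 10.99 and 9.88 in CCSP-p52 pools and 11.22 and 10.85 in WT pools with LPS, against 9.36 and 9.09 in CCSP-p52 pools and 9.67 and 9.06 in WT pools without LPS. It rose by 1.44 ± 0.26, 2.71-fold (adjusted p = 0.0039), and CCSP-p52 LPS pool 2, at 9.88, came within 0.21 of WT pool 1 without LPS. Itgb2, the β subunit that both α subunits need to reach the cell surface, measured 12.34 and 11.28 in CCSP-p52 pools and 12.46 and 12.12 in WT pools with LPS, against 10.18 and 9.82 in CCSP-p52 pools and 10.26 and 9.64 in WT pools without it. Its rise was 2.07 ± 0.26, 4.21-fold (adjusted p = 0.00084).

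Relative to the mean of the lungs without LPS, the change of Itgam exceeded that of Itgal by 1.35 to 1.71 log2 units on the LPS arrays, and that of Itgb2 by 0.79 to 1.00. These differences stayed within 0.23 of zero on the arrays without LPS. The order of the changes, Itgam above Itgb2 above Itgal, was therefore the same on each LPS array, CCSP-p52 pool 2 included. Leukocyte markers moved with these genes. All 7 pan-leukocyte markers, 13 of 15 neutrophil markers, 9 of 11 monocyte and macrophage markers and 4 of 12 T and NK cell markers rose with LPS, and none of these 4 lists had a gene that fell. With the replicate block, Cd2 of the T and NK cell list was lower (-0.31, adjusted p = 0.0157), and without CCSP-p52 LPS pool 2 there was 1 lower gene in the monocyte and macrophage list. Their median logFC was 1.01 for the pan-leukocyte, 3.52 for the neutrophil, 2.60 for the monocyte and macrophage and 0.17 for the T and NK cell list. The summed pan-leukocyte signal was 13.74 to 14.66 in LPS lungs, against 12.83 to 13.39 in lungs without LPS, and Ptprc, which encodes the pan-leukocyte surface protein CD45, had a logFC of 1.01 ± 0.19. The part of these marker shifts in the rises of Selplg and the integrin subunits was not tested. Over all probe sets, 13.5% were called higher and 20.2% lower with LPS. Of 7 B cell markers none was higher and 2 were lower, Ms4a1 (-0.99 ± 0.30) and Pax5 (-0.72 ± 0.13). That count was 5 with the replicate block and 1 in each fit without 1 of these arrays: CCSP-p52 LPS pool 2, WT LPS pool 2, and pool 1 of either genotype without LPS. Of 5 platelet markers, a cell type that also stores P-selectin, Pf4 (0.28 ± 0.08) rose and none fell. No platelet marker was higher when WT LPS pool 1 or any single pool without LPS was left out, and 3 platelet markers were lower without CCSP-p52 LPS pool 2.

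**Figure D2:**
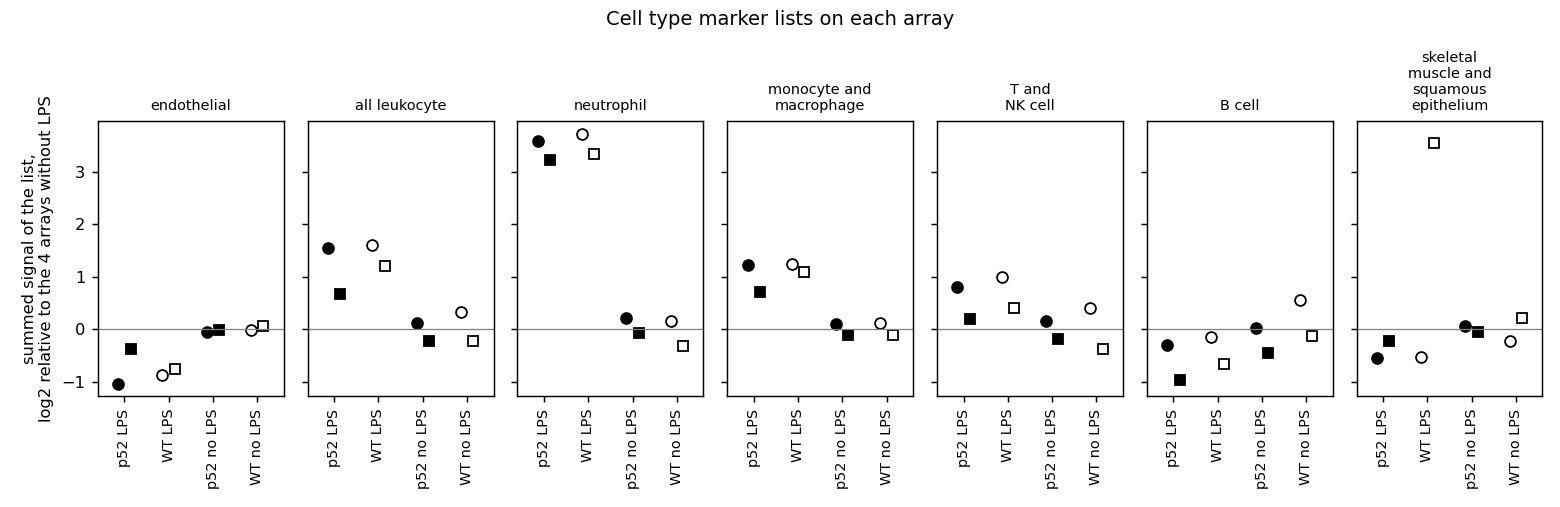
Summed signal of 7 marker lists on each array, on the log2 scale relative to the mean of the 4 arrays without LPS. Filled symbols are CCSP-p52 pools, open symbols WT pools, circles pool 1 and squares pool 2. Leukocyte, neutrophil and macrophage sums are higher and endothelial sums lower with LPS, CCSP-p52 LPS pool 2 has the smallest shift of the 4 LPS pools in these 4 lists, and WT LPS pool 2 alone has the muscle and squamous transcripts.

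Within each genotype the same directions were seen, with fewer calls. In CCSP-p52 lungs, LPS raised Selp (logFC 2.15 ± 0.29, adjusted p = 0.011), Selplg (1.31 ± 0.30, 0.043), Itgam (2.90 ± 0.33, 0.007) and Itgb2 (1.81 ± 0.37, 0.031), which is 4 of 9 genes, against 4.31% of all probe sets called higher. No gene of the 9 was called lower, against 5.17% of all. Icam2 (-0.74, adjusted p = 0.087), Vcam1 (0.49, 0.063), Itgal (1.21, 0.087), Sele (0.22, 0.59) and Icam1 (0.17, 0.45) did not pass. In WT lungs, 6 genes rose, against 7.98% of all probe sets: the same 4 and in addition Vcam1 (0.70 ± 0.13, adjusted p = 0.015) and Itgal (1.67 ± 0.37, 0.024). Icam2 fell in WT lungs (-0.88 ± 0.23, adjusted p = 0.036), against 13.7% of all probe sets called lower, while Icam1 (0.44, 0.057) and Sele (0.40, 0.27) did not pass. The median logFC of the 9 genes was 1.21 in CCSP-p52 lungs, against 1.44 in WT lungs, and -0.025 and 0.015 for all probe sets.

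These calls depended on single pools, on the treatment of the pool number and on other settings. The Icam2 call in WT lungs was lost with all probe sets (adjusted p = 0.0546) and after renewed quantile normalization (0.0525). With 1 array left out, its logFC there ran from -0.98 to -0.78. The Selplg call in CCSP-p52 lungs was lost with all probe sets (adjusted p = 0.0642), with array weights (0.0716) and with only the 4 CCSP-p52 arrays (0.0986), where the calls of Selp and Itgb2 were lost too. With pool number as a replicate block, Icam2 (-0.74, adjusted p = 0.0392), Vcam1 (0.49, 0.0242) and Itgal (1.21, 0.018) were called in CCSP-p52 lungs too, and Icam1 was called in WT lungs (0.44, 0.0306). Without CCSP-p52 LPS pool 2, the LPS effect in CCSP-p52 lungs was -1.11 for Icam2, 0.64 for Vcam1 and 1.76 for Itgal, and all 3 were called. Leaving out either CCSP-p52 pool without LPS ended all 4 calls in CCSP-p52 lungs, and leaving out WT pool 2 without LPS left 1 of the 6 rises in WT lungs. The LPS effects of CCSP-p52 and WT lungs share no arrays, and whether they differed is the test of the p52 effect with LPS minus that without, given below.

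No adhesion gene passed the test for p52. The study ranked p52 genes at a logFC cut-off of 0.41. Here that size was taken in either direction and an unadjusted p of 0.05 or less was required with it, which 0.287% of all probe sets met in the additive model. The p52 logFC over all 8 arrays ran from -0.37 for Itgal to 0.16 for Icam2, the smallest unadjusted p was 0.184, and the 95% confidence intervals together spanned -0.96 to 0.51. The median of the 9 genes was -0.10, against 0.001 for all probe sets. The intervals were narrowest for Vcam1 (-0.26 to 0.18) and Icam1 (-0.32 to 0.15), and widest for Itgal (-0.96 to 0.22) and Itgb2 (-0.80 to 0.38).

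Without LPS, the p52 logFC of the 9 genes ran from -0.14 for Itgal and Itgam to 0.09 for Sele and Icam2, and no gene met the cut-off, against 0.716% of all probe sets. The CCSP-p52 and WT values overlapped in 9 of the 9 genes, as they did in 68.0% of all probe sets. The p52 interval of Icam1, -0.27 to 0.37, and that of Vcam1, -0.24 to 0.38, leave room for a rise of up to 1.30-fold. The other genes had wider intervals. That of Itgb2, -0.82 to 0.92, leaves room for a rise of up to 1.89-fold, and that of Itgal ran from -1.02 to 0.74. For Nfkb2 the same comparison gave a logFC of 0.72 ± 0.23.

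With LPS, the p52 logFC ran from -0.60 for Itgal and -0.48 for Itgb2 to 0.23 for Icam2, and 8 of the 9 were negative. None met the cut-off, against 2.18% of all probe sets, and the smallest unadjusted p was 0.147. With pool number as a replicate block, Itgal (-0.60, unadjusted p = 0.0262) and Itgb2 (-0.48, unadjusted p = 0.043) met it, but with adjusted p of 0.543 and 0.56. The estimates rested on CCSP-p52 LPS pool 2, which was the lowest of the 4 LPS arrays in 8 of the 9 genes and the highest in Icam2. Over all probe sets this pool was the lowest in 32.6% and the highest in 32.5%. Leaving out CCSP-p52 LPS pool 1 leaves pool 2 alone to stand for CCSP-p52 lungs with LPS. The logFC was then -0.81 for Selp, -1.16 for Itgal, -0.82 for Itgam, -1.01 for Itgb2 and 0.60 for Icam2. Without pool 2, the logFC was 0.12 for Selp, -0.05 for Itgal, 0.24 for Itgam, 0.06 for Itgb2 and -0.14 for Icam2. With both pools in, the CCSP-p52 and WT values with LPS overlapped in 9 of the 9 genes and in 68.4% of all probe sets.

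The p52 effect with LPS minus that without LPS ran from -0.53 for Itgb2 to 0.14 for Icam2, with the smallest unadjusted p at 0.196. None of the 9 met the cut-off, against 3.63% of all probe sets. Intervals were wide, from -1.76 to 0.71 for Itgb2 and from -1.24 to 0.70 for Selp. With 1 array left out, the median of the 9 genes by this measure ran from -0.50 to 0.0053.

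**Figure D3:**
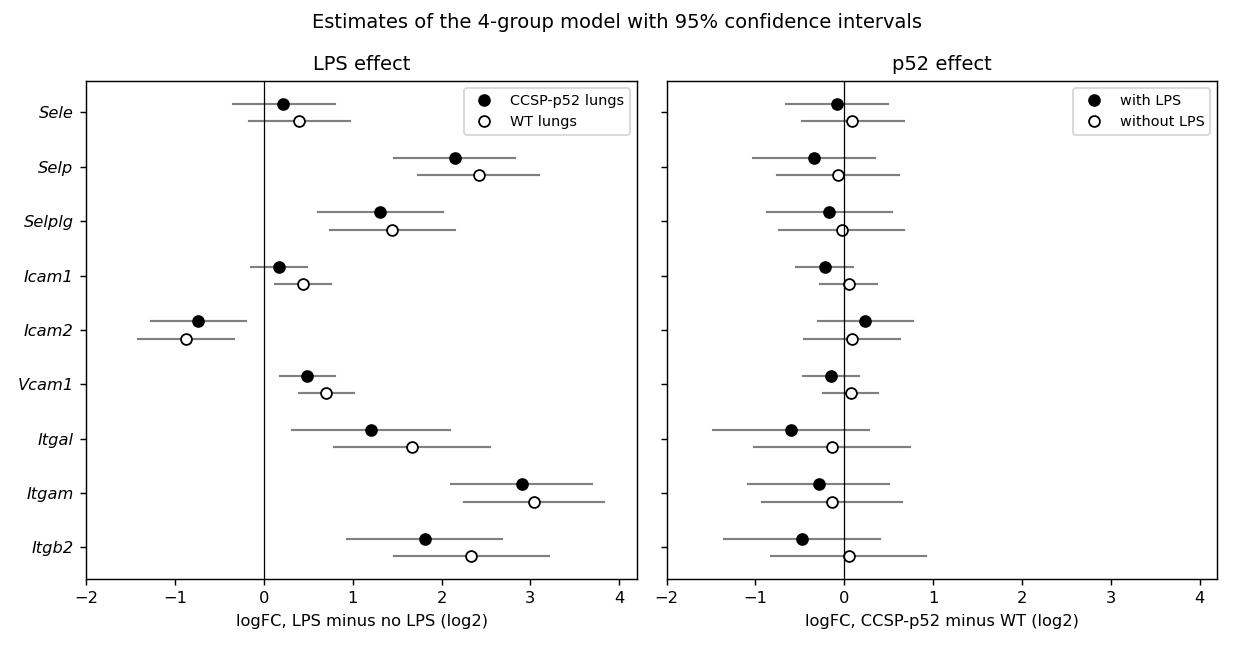
Estimates of the 4-group model with 95% confidence intervals for each adhesion gene. The left panel shows the LPS effect (logFC, LPS minus no LPS) in CCSP-p52 lungs (filled) and WT lungs (open), the right panel the p52 effect (logFC, CCSP-p52 minus WT) with LPS (filled) and without LPS (open). LPS intervals exclude zero for 8 genes in WT lungs and 7 in CCSP-p52 lungs before adjustment, and all p52 intervals include zero.

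The pools of a condition also differed in a regular way. In 6 of the 9 genes pool 1 was above pool 2 in all 4 conditions, against 15.9% of all probe sets, and in Icam2 it was below in all 4, against 11.9%. The 6 were Selp, Selplg, Vcam1, Itgal, Itgam and Itgb2. In the same way, pool 1 exceeded pool 2 in all 4 conditions in all 7 pan-leukocyte markers, and in none of the 18 endothelial markers. What same-numbered pools had in common was not stated by any source used.

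All LPS values of a gene lay above all others in 7 of the 9 genes, against 15.3% of all probe sets, and below in 1, against 21.2%. Over the 8 arrays, which form separate LPS and no-LPS clusters and share their lungs, the probe sets most like each member were found by Pearson's r, as a description. For Selp these were Irak3 (r = 0.9999), an inhibitory kinase of Toll-like receptor signalling, Slc2a6 (0.9988) and Tnfaip2 (0.9988), and for Vcam1 Ifi30 (0.9988), a lysosomal thiol reductase. Itgam was most like Clec4d (0.9991), a myeloid lectin, and Il1b (0.9991), an inflammatory cytokine, Itgal most like Ptprc (0.9967), and Itgb2 most like Sema4a (0.9979). Selplg was closest to Pygl (0.9978) and Icam2 to Pkd1 (0.9967). Icam1 came closest to Galnt9 (0.9933) and to Fdx2 (0.9905), the fourth protein-coding gene after it on chromosome 9. Sele, with no call for LPS, had as its nearest pattern Sec24b (0.9867), a coat protein of vesicles leaving the endoplasmic reticulum.

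Lists of cascade genes, which include the adhesion genes described above, held calls in both directions with LPS. Over all probe sets, 13.5% were called higher and 20.2% lower, and whether any list differed from these shares was not tested. Among 20 measured selectins and genes of selectin ligand synthesis, 5 rose and 4 fell, with a median logFC of 0.13. Outside the adhesion genes described above, 3 of this list rose and 4 fell. Fut4 (0.73 ± 0.09), a fucosyltransferase that builds selectin ligands, Gcnt1 (0.45 ± 0.10), which branches their core sugars, and Cd44 (1.18 ± 0.17), a hyaluronan receptor that can bind E-selectin, were higher. Lower were Emcn (-1.05 ± 0.09), an endothelial sialomucin, Chst2 (-1.22 ± 0.15), a sulfotransferase, Glg1 (-0.30 ± 0.06), an E-selectin ligand of the Golgi, and Tpst1 (-0.27 ± 0.09), which sulfates tyrosines.

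Of 20 immunoglobulin superfamily adhesion and junction genes, 3 rose and 11 fell, with a median of -0.26. Besides Vcam1 and Icam1, only Pvr (1.02 ± 0.13), a nectin-like receptor, was called higher. Among those that fell were Mcam (-0.64 ± 0.10) and Esam (-0.55 ± 0.11), both adhesion molecules at endothelial junctions, Cd99l2 (-0.57 ± 0.10), which takes part in the passage between endothelial cells, and Alcam (-0.39 ± 0.09), a ligand of CD6. Without WT pool 1 or WT pool 2 of the lungs without LPS, 7 and 6 of the list fell and 2 rose. Over 26 integrin subunits, 7 rose and 7 fell, and the median was -0.007. Outside the adhesion genes described above, 4 subunits rose and 7 fell. The subunits higher outside the β2 pairs described above were Itga5 (0.90 ± 0.17) of the fibronectin receptor, Itga7 (0.93 ± 0.10), a laminin receptor of muscle, Itgax (0.90 ± 0.21), which encodes CD11c, and Itga4 (0.61 ± 0.16), the α subunit that binds VCAM-1. Itga8 (-2.37 ± 0.29), a subunit of fibroblasts and smooth muscle, fell most of the subunits named, along with the collagen receptor subunits Itga1 (-1.09 ± 0.10) and Itga2 (-0.79 ± 0.07) and with Itgb5 (-0.51 ± 0.08).

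Integrin activation in leukocytes was the list with most rises, 12 of 23 measured genes, with 2 lower and a median of 0.35. Lcp2 (2.65 ± 0.23), an adaptor, Vav1 (2.16 ± 0.26), a signalling protein of blood cells, Fgr (2.17 ± 0.30), a Src family kinase, and Fyb (2.02 ± 0.28), an adaptor that binds Lcp2 protein, were higher. Rasgrp2 (-1.07 ± 0.18), the exchange factor for Rap1, and Tln1 (-0.21 ± 0.07), which encodes the talin that opens integrins, were lower. Of 11 genes that shed or oppose adhesion, 5 rose and 4 fell, with a median of 0.008. Adam8 (1.98 ± 0.21) and Adam17 (0.63 ± 0.14), proteases that release proteins from the cell surface, Ptx3 (1.04 ± 0.17), which binds P-selectin, and Anxa1 (0.86 ± 0.10), which limits neutrophil adhesion, were higher. Edil3 (-1.52 ± 0.20), an endothelial inhibitor of LFA-1, Mfge8 (-0.91 ± 0.09), Cd55 (-0.62 ± 0.17) and Sod3 (-0.49 ± 0.10) were lower. In these 5 lists no gene met the cut-off for p52 over all 8 arrays, with LPS or without it. With the replicate block, Itgal and Itgb2 of the integrin subunits and Rac2 (-0.42, unadjusted p = 0.0362, adjusted p = 0.553) and Fgr (-0.59, unadjusted p = 0.0435, adjusted p = 0.561) of the integrin activation list met it with LPS. With LPS, some genes of these same lists were called lower without CCSP-p52 LPS pool 1, and none without CCSP-p52 LPS pool 2. Shares of all probe sets called in those fits are not given.

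**Figure D4:**
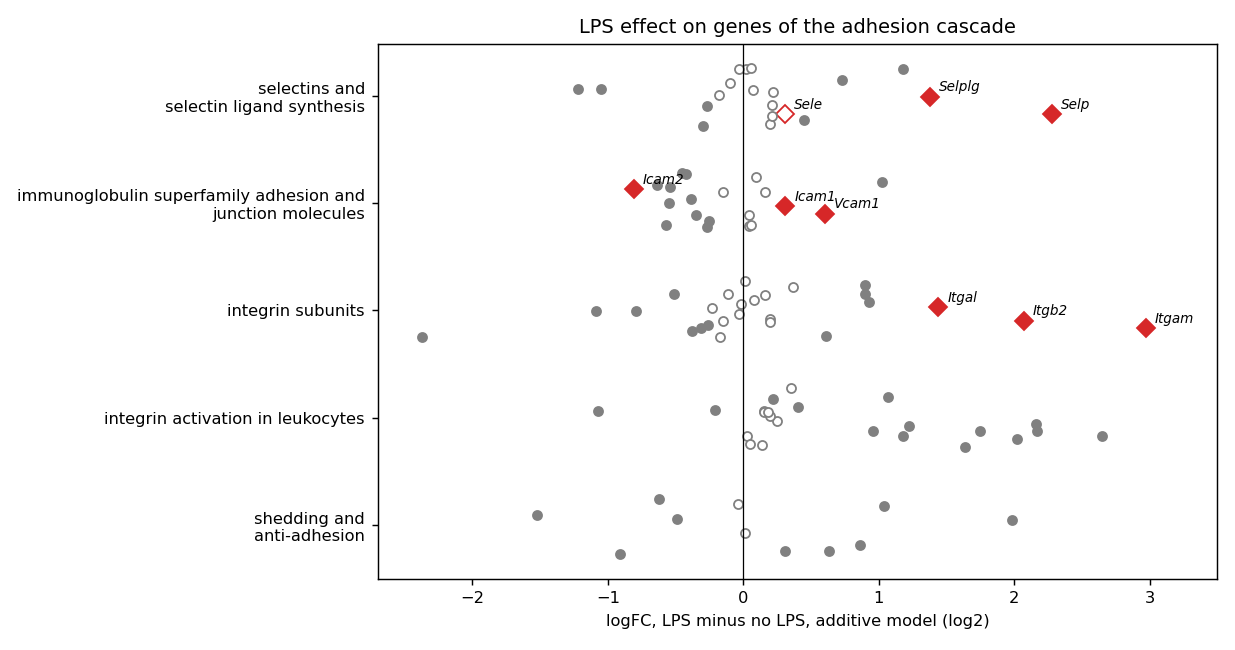
LPS effect (logFC, LPS minus no LPS, additive model) on the measured genes of 5 adhesion lists. Diamonds are the 9 adhesion genes described here, circles the other genes of each list, filled symbols those called at an adjusted p under 0.05 and open symbols those not called, with vertical scatter only to separate symbols. Itgam, Selp and Itgb2 lie furthest right among the diamonds, and Icam2 is the only one to the left of zero.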

How the data were processed

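The authors made the deposited log2 expression values from the arrays by the Robust Multichip Average (R package oligo), with background correction, quantile normalization and a summary per probe set. Limma 3.20.8 is named in the submitters' processing notes too. Equalized distributions remove any difference in total RNA between lungs, and scanner files were not used here. Of 35556 probe sets, 21218 carry 1 symbol, 1881 several and 12457 none in the platform's gene table, and whether that table is of the 1.0 version of the array was not settled. Those with 1 symbol were tested.

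Linear models with empirical Bayes moderation were fitted to all 8 arrays with limma 3.58.1 (R 4.3.3): the additive model of p52 and LPS from the study's methods, and a 4-group model for effects within LPS states and genotypes. LPS calls needed a Benjamini-Hochberg adjusted p under 0.05, and p52 calls a logFC of 0.41 or more, the study's cut-off for p52 genes but taken either way, together with an unadjusted p of 0.05 or less, added here. No source says whether pools were separate experiments, so p-values measure the spread between pools, 2 per condition, and the number of arrays limits precision (median standard error 0.0946 in the additive and 0.129 in the 4-group model). The fit was tested on simulated arrays.

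The 9 genes, the 5 cascade lists and the 9 marker lists were chosen with earlier results of these data known. From each cascade list up to 4 genes other than the 9 were named per direction, by LPS p, marker genes by their place in the list, and the 3 most alike genes of each member by Pearson's r, of which some are printed. Krt5, Krt13, Acta1 and the chromosomal neighbours were named after their values were seen. Deviations of same-numbered pools from their condition means had correlations between 0.14 and 0.35 in the 6 pairs of conditions. From these values alone, pool number was used as a replicate block in an alternative fit. The main fits and their p-values did not use it. Alternatives were other sets of probe sets, moderation, array weights, centring, renewed quantile normalization and pool number as a replicate block. Further ones were stricter thresholds, the 4 arrays compared alone and each array left out. The stricter thresholds were a logFC of at least 1 and, for LPS, an adjusted p under 0.01. For p52 the unadjusted p of 0.05 or less was kept. A fit that left out the second LPS pool of both genotypes was chosen after seeing the data. Promoter sequences are from RefSeq (GRCm38.p6) and were matched by symbol for 4 of the 9 genes.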

Additional observations from a re-analysis of the deposited data

How the results depend on the processing

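Each LPS effect of the 9 genes kept its direction under every alternative run. In the additive model the count called lower was 0 at the stricter threshold, and 6 to 7 were higher with 1 array left out. In WT lungs the count called lower was 0 with all probe sets, with renewed quantile normalization and at the stricter threshold (0 to 1 with 1 array left out), and 3 were higher at the stricter threshold (1 to 7 with 1 array left out). In CCSP-p52 lungs 1 was lower with the replicate block or without both second LPS pools (0 to 1 with 1 array left out), 1 was higher at the stricter threshold or with only the 4 arrays compared (0 to 6 with 1 array left out), and the median logFC was 1.69 without both second LPS pools (0.65 to 1.69 with 1 array left out). The p52 estimates, none of them called, changed sign more readily. Additive p52 values with array weights were 0.021 for Selplg, 0.052 for Vcam1 and 0.095 for Itgb2, and without both second LPS pools 0.014 for Vcam1. With LPS, leaving out both second LPS pools gave -0.080 for Icam2 and 0.091 for Itgam. With the replicate block, 2 genes were lower for p52 with LPS, and the block changed no p52 call over all arrays or without LPS. With 1 array left out, calls for p52 were 0 to 1 lower over all arrays, 0 to 4 lower and 0 to 1 higher with LPS, and 0 to 4 lower and 0 to 1 higher for the difference between LPS states. The additive p52 logFC then ran from -0.14 to 0.11 for Sele, -0.37 to 0.0028 for Selp, -0.24 to 0.062 for Selplg, -0.13 to 0.00023 for Icam1, -0.0018 to 0.29 for Icam2, -0.086 to 0.041 for Vcam1, -0.42 to 0.012 for Itgam and -0.39 to 0.052 for Itgb2. Without LPS it ran from -0.23 to 0.41 for Sele, -0.29 to 0.23 for Selplg, -0.015 to 0.19 for Icam2, -0.45 to 0.16 for Itgal, -0.32 to 0.034 for Itgam and -0.26 to 0.36 for Itgb2. With LPS it ran from -0.29 to 0.13 for Sele, -0.81 to 0.12 for Selp, -0.54 to 0.21 for Selplg, -0.14 to 0.60 for Icam2, -0.29 to 0.00048 for Vcam1, -0.82 to 0.24 for Itgam and -1.01 to 0.055 for Itgb2. Fits without 1 array leave a condition with 1 pool, which was assumed to vary like the others. Shares of all probe sets called in such fits are not given, so their counts have no background beside them. The cause of these changes was not tested.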

Other observations

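The cells that carry the adhesion receptors were read through their marker genes. S100a8, a calcium-binding protein that fills the cytoplasm of neutrophils, measured 11.86 and 11.42 in CCSP-p52 pools and 12.03 and 11.43 in WT pools with LPS, against 7.00 and 6.91 in CCSP-p52 pools and 7.58 and 6.62 in WT pools without LPS, a logFC of 4.65 ± 0.22 (SE, adjusted p = 3.2e-05, limma). In S100a8, CCSP-p52 LPS pool 2 lay beside WT LPS pool 2, whereas in Csf3r, the receptor for the neutrophil growth factor G-CSF, it was at 10.53, against 11.27 to 11.64 on the other LPS arrays. The macrophage marker Adgre1 rose by 3.05 ± 0.26 and Cd68 by 2.60 ± 0.26, while Lyz2, a lysozyme gene that alveolar type II cells and macrophages both express, had a logFC of 0.21 ± 0.07 (adjusted p = 0.056).

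Lymphocyte genes were mixed. The 4 of 12 T and NK cell genes that rose with LPS were Nkg7 (1.55 ± 0.28, adjusted p = 0.0041), Gzma (1.31 ± 0.20, 0.0019) and Prf1 (1.02 ± 0.20, 0.006), all of cytotoxic granules, and Ncr1 (0.81 ± 0.22, 0.022), an NK cell receptor. Cd3e, of the T cell receptor complex, had a logFC of 0.17 ± 0.29 with LPS (adjusted p = 0.70), and Ms4a1, which encodes the B cell protein CD20, was lower by this measure (-0.99 ± 0.30, adjusted p = 0.034). Of 10 lung epithelial genes, none rose with LPS and 4 fell, against 13.5% and 20.2% of all probe sets. Their median was -0.34, and Sftpb, a surfactant protein gene, fell by 0.42 on the log2 scale. Of 10 skeletal muscle and squamous epithelial genes none passed the test either way. Only WT LPS pool 2 stood apart there, with a summed signal of 14.56, against 10.46 to 11.21 on the other arrays.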
